A study of Mus musculus with 9 samples.

Results

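The liver burns and stores glucose with isozymes of its own, and this report follows 8 genes that encode isozymes of glycolysis at the hexokinase, aldolase and pyruvate kinase steps. The genes were Hk1, Hk2, Hk3, Hkdc1, Aldoa, Aldoc, Pklr and Pkm, taken by gene symbol from the table of counts. They account for 9 of its 55401 rows, because the symbol Aldoa stands on 2 of them. All 8 genes passed the filter on low counts, as did 15717 genes in all. The second Aldoa row held 0 to 6 counts in a liver, was not tested and is left aside below. Shares given below are over these 8 genes only, within each enzyme, and are not shares of all the transcripts of that enzyme in the liver.

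Hexokinases put a phosphate on glucose and so trap it in the cell. Hk1, Hk2 and Hk3 encode forms with a high affinity for glucose that are held back by their own product. Aldolase splits the 6-carbon sugar into triose phosphates, with Aldoa encoding the form of muscle and Aldoc that of brain. Pyruvate kinase makes pyruvate and ATP in the last step, with Pklr encoding the liver and red cell form and Pkm the forms of muscle and of most other and growing cells. A fall of Pklr with a rise of Pkm and Hk2 is a long-known trait of hepatocellular carcinoma (HCC). The counts are per gene, so the Pkm1 and Pkm2 splice forms of Pkm could not be told apart.

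Whole livers of 9 female mice were compared, 3 healthy, 3 with untreated HCC and 3 with miR-22-treated HCC, all wild type and 6 weeks old at the start. Their strain is FVB/N in the protocol and C57BL/6 in the sample attributes. In the HCC mice, tumors were raised by injecting plasmids with the sleeping beauty transposase (pCMV-SB11) into the tail vein. The protocol lists pT3-EF1α-HA-myr-AKT and pT/Caggs-Nras-v12, the AKT and RAS oncogenes of this model, and pT3-EF1α-N90-β-catenin, and the sample attributes do not say which a mouse received. The study's methods give the sequenced HCC livers as those raised with RAS and AKT. At week 1, untreated HCC mice were given a blank adeno-associated virus of serotype 8 (AAV8), and miR-22-treated mice AAV8 that overexpresses the microRNA miR-22 from a CMV promoter. HCC livers were taken at week 5, which is 4 weeks after the virus, while the healthy mice are labelled as a baseline without treatment, with no time given. The healthy group therefore differs from both HCC groups in injection, virus and tumors together, and these cannot be told apart.

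Libraries held 16664659 to 23908392 counts. Akt1, whose count includes any read of the AKT plasmid that matches the mouse gene, averaged 2039 ± 57.5 normalized counts in the healthy group, 28823 ± 5333 without treatment and 16641 ± 4319 under miR-22 (SD, n = 3 each). Mir22hg, the host gene of miR-22, averaged 1202 ± 151, 351.5 ± 81.6 and 598.4 ± 49.6 in the same order, and it does not measure the microRNA made by the virus. The 9 hepatocyte markers summed to 133679 to 137156 CPM (counts scaled to a common library size) among the healthy, 55616 to 69685 among the untreated and 83500 to 103809 among the treated livers. Markers of cholangiocytes, several of which tumor cells also express, summed to 51.5 to 63.5, 3482 to 6418 and 1636 to 2798 CPM. In whole liver, fewer cells of a type and less RNA per cell cannot be told apart, and the part of either in the values below was not tested.

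The 22-base strands of miR-22 are shown because the treatment delivers this microRNA, and the bases in capitals are the seed (bases 2 to 8), with which a microRNA pairs to its targets. The sequences are those of RefSeq, and the hairpin lies at chr11:75354542-75354636 on the plus strand (GRCm39).
mmu-miR-22-3p: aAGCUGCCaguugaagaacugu
mmu-miR-22-5p: aGUUCUUCaguggcaagcuuua
The match to the miR-22-3p seed, GGCAGCT, was searched on the sense strand of the canonical transcripts of GENCODE vM39. It was in the 3′ UTR of 0 of the 8 genes and in the coding sequence of 0 of them. By comparison, 14.0% of 20872 transcripts with a 3′ UTR held the match, and 16.9% of the 13559 among them whose gene was tested. No match says only that these letters are not in that stretch.

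Normalized counts below are counts scaled to the library size by the trimmed mean of M values (TMM). A gene was called when its fold change was over 1.5 and its Benjamini-Hochberg adjusted p was under 0.05 in edgeR's quasi-likelihood test over all 15717 genes. In untreated HCC, 6 of the 8 genes were called against healthy livers, where 40.8% of all genes were. Hk1, Hk2, Hkdc1, Aldoa and Pkm were the 5 called higher (22.7% of all genes) and Pklr the 1 called lower (18.1%), while Hk3 and Aldoc were not called. The groups did not overlap in 6 of the 8 genes, against 65.3% of all genes. Between miR-22-treated and untreated HCC, Hkdc1 and Aldoa were called lower (5.47% of all genes) and 0 of the 8 higher (8.32%), so 2 of 8 were called where 13.8% of all genes were. Here 7 of the 8 genes did not overlap between the groups, against 39.3% of all genes. Against healthy livers, 5 of the 8 genes were called in miR-22-treated HCC, where 24.0% of all genes were. Of these, Hk2, Hkdc1, Aldoa and Pkm made up the 4 called higher (16.9% of all genes) and Pklr the 1 called lower (7.05%), and 7 of the 8 genes did not overlap (48.8%). When edgeR tested for a fold over 1.5 (glmTreat), the 5 calls became 3 (12.8% of all genes in that test) and the 2 calls between the HCC groups became 1 (2.98%). The comparisons share groups of livers, so each gene's values in them are not independent. Nothing in the labels says more of the 3 livers of a group than that they are separate samples. The edgeR p-values set a group difference against the spread between samples within groups. That spread is estimated over all 9 libraries and with the help of other genes.

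**Figure D1:**
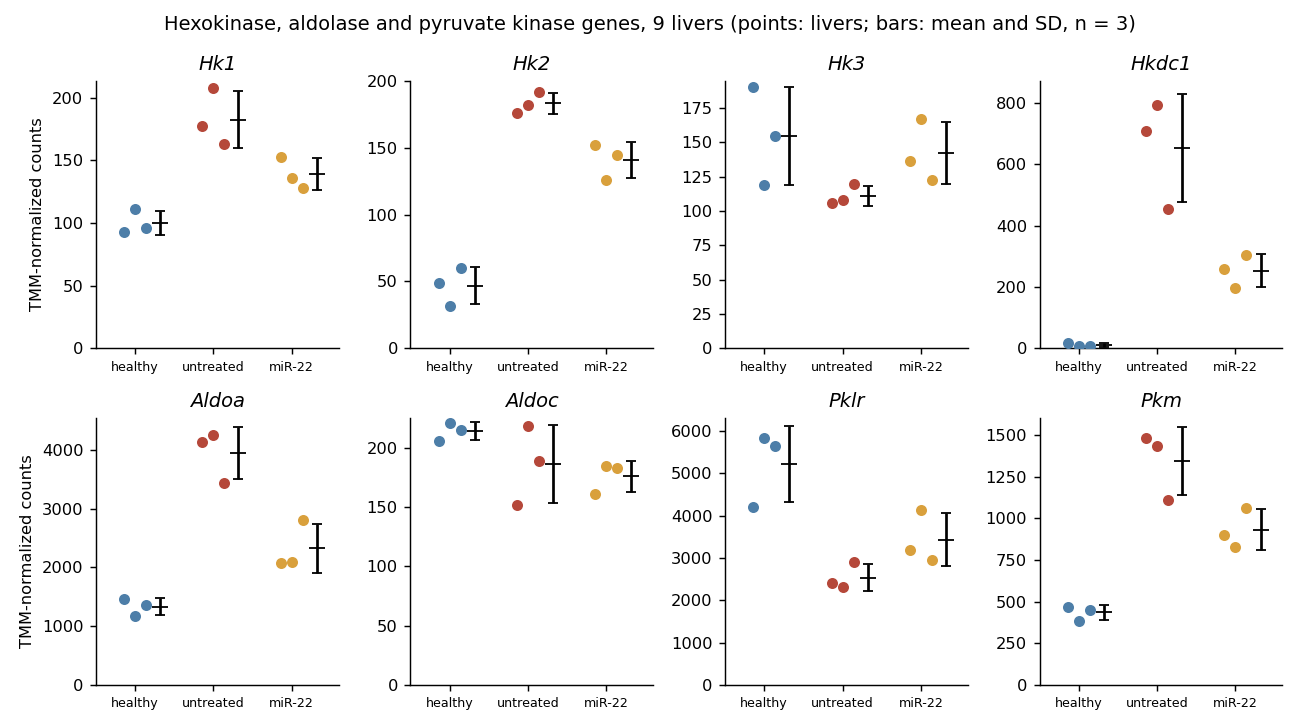
TMM-normalized counts of the 8 isozyme genes (linear axes from 0) in healthy, untreated HCC and miR-22-treated HCC livers. Points are the 9 livers and bars the mean and SD of 3. Hkdc1 lies near 0 in healthy livers and between 454.4 and 794.9 in untreated HCC, and Pklr is highest in healthy livers.

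Hkdc1, the hexokinase domain-containing gene that encodes the most recently described hexokinase, was the member that changed most. Healthy livers held 15.9, 7.33 and 6.40 normalized counts of Hkdc1, from 13, 6 and 6 counts. The untreated HCC livers held 710.1, 794.9 and 454.4, and the miR-22-treated livers 258.5, 196.7 and 303.6. No 2 groups overlapped, and every miR-22-treated liver lay between the healthy and the untreated HCC livers. Hkdc1 rose 66.2-fold in untreated HCC (log2 fold change 6.05, SE 0.331, edgeR adjusted p = 3.87e-08). It was lower with miR-22 than in untreated HCC (log2 fold change -1.36, SE 0.219, edgeR adjusted p = 0.00121), at 0.387 times the mean. With miR-22 it remained above healthy livers (log2 fold change 4.69, SE 0.344, edgeR adjusted p = 9.15e-07). With 6 to 13 counts in a healthy liver, the fold against that group rests on few reads. Over the 16 alternative analyses that gave one, the log2 fold change against healthy livers ran from 4.50 to 6.59 for untreated HCC and from 3.21 to 5.25 for miR-22-treated HCC, lowest with limma on log2(CPM + 1) in both. Of the 9 cholangiocyte markers, 8 were called higher in HCC without treatment, against healthy livers (22.7% of all genes), and 7 lower with miR-22 (5.47% of all genes). The liver with the lowest Hkdc1 in untreated HCC, replicate 4, also had the lowest sum of these markers (3482 CPM) and the lowest Akt1 (22700 normalized counts), and the liver with the lowest Hkdc1 under miR-22, replicate 3, had 1636 CPM and 13027 normalized counts, the lowest of its group in each. The part of these cells and of the oncogene dose in the Hkdc1 values was not tested.

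Hk2, the inducible hexokinase of muscle and fat and of many tumors, had 48.8, 31.8 and 59.7 normalized counts in healthy livers. It had 176.4, 182.4 and 192.1 in untreated HCC. It had 152.0, 126.2 and 144.9 in miR-22-treated HCC. All HCC livers lay above all healthy livers, and the treated livers lay below the untreated ones without overlap. Hk2 rose 3.90-fold in untreated HCC (log2 fold change 1.96, SE 0.209, edgeR adjusted p = 5.81e-06) and was 3.00-fold above healthy livers with miR-22 (log2 fold change 1.58, SE 0.212, edgeR adjusted p = 0.000117). Between the HCC groups the log2 fold change was -0.38 with an SE of 0.189 (edgeR adjusted p = 0.17), which did not pass the test. Hk2 has 18 exons at chr6:82699740-82751469 on the minus strand (GRCm39).

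Hk1, the widely expressed form that binds to mitochondria, had 92.7, 111.2 and 95.9 normalized counts in healthy livers. It had 177.3, 207.6 and 163.1 in untreated HCC and 153.1, 136.1 and 128.3 with miR-22. The groups did not overlap, with untreated HCC the highest. Hk1 rose 1.83-fold in untreated HCC (log2 fold change 0.87, SE 0.162, edgeR adjusted p = 0.000554), and the call was lost when edgeR tested for a fold over 1.5 (glmTreat adjusted p = 0.0506). The miR-22-treated livers differed from the untreated ones by a log2 fold change of -0.39 (SE 0.158, edgeR adjusted p = 0.0916). Against healthy livers the value was 0.48 (SE 0.165, edgeR adjusted p = 0.0392), at 1.39-fold under the fold threshold. Hk1 and Hkdc1 are neighbours on the minus strand of chromosome 10, 3228 bases apart in GRCm39, at 62104621 to 62215687 and 62218916 to 62258270. Each gene has 18 exons in its canonical transcript.

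Hk3, a hexokinase known from blood cells of the myeloid line, had 190.3, 118.6 and 154.6 normalized counts in healthy livers. Untreated HCC livers had 105.5, 107.7 and 119.6, and miR-22-treated livers 136.5, 167.0 and 122.7. The treated livers lay above the untreated ones, and the range of the healthy livers held all treated livers and the highest untreated one. None of its comparisons passed the test, at log2 fold changes of -0.48 in untreated HCC against healthy livers (SE 0.194, edgeR adjusted p = 0.0527), 0.35 with miR-22 against untreated HCC (adjusted p = 0.217) and -0.12 with miR-22 against healthy livers (adjusted p = 0.653). The gene has 19 exons at chr13:55153798-55169276 on the minus strand (GRCm39). Without healthy replicate 2, Hk3 was called lower in untreated HCC (log2 fold change -0.64, edgeR adjusted p = 0.0167). Of the 11 macrophage markers, 4 were called in untreated HCC against healthy livers (40.8% of all genes), with Lyz2, C1qa and Cd68 higher at log2 fold changes of 1.47, 0.62 and 0.68 and Timd4 lower at -0.73, and the other 7 ran from -0.42 to 0.57. With miR-22 against untreated HCC all 11 ran from -0.17 to 0.51. All 11 together summed to 487.6 to 612.7 CPM among the healthy, 610.1 to 679.7 among the untreated and 698.4 to 736.8 among the treated livers. The 10 neutrophil markers summed to 1.83 to 4.59, 18.0 to 23.6 and 18.0 to 26.7 CPM, with Ly6g at 3 counts or fewer in every library.

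Among the 4 hexokinase genes the leading gene differed between the groups. Shares are of counts per kilobase of transcript, so that genes of different length can be set side by side. The Hkdc1 share of the 4 genes was 4.93%, 3.02% and 2.28% in healthy livers. It was 67.6%, 68.2% and 56.4% in untreated HCC and 42.9%, 35.9% and 49.9% with miR-22. No 2 groups overlapped, and every treated liver lay between the others. Hk3 led in all healthy livers, with a share of 64.6%, 53.4% and 60.1%. Its share was 11%, 10.1% and 16.2% in untreated HCC and 24.8%, 33.3% and 22% with miR-22, again without overlap. For Hk1 the share averaged 29.8% ± 7.17 in healthy livers, 15.0% ± 1.43 in untreated HCC and 19.5% ± 1.94 with miR-22 (SD, n = 3), and the groups did not overlap.

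Over the 3 groups, an exact permutation test gave p = 0.00357 for each of the shares of Hkdc1, Hk3 and Hk1, the smallest it can give with 9 livers, and 0.00429 after adjustment over 6 shares. Shares of 1 enzyme sum to 100%, so these are not independent, and the shares of Hk3 and Hk1 were lower in untreated HCC while the level of Hk1 was higher there. The Hk2 share was 7.44% ± 1.91 in healthy livers, 8.46% ± 2.0 in untreated HCC and 10.8% ± 0.508 with miR-22, and it did not pass the test (exact permutation p = 0.143, adjusted p = 0.143). It differed by 1.02 points between untreated HCC and healthy livers, and by -0.125 points without untreated replicate 4. Pairs of groups with 3 livers each cannot go below an exact p of 0.1. Together the 4 genes came to 80.1 ± 11.3 normalized counts per kilobase in healthy livers, 286.4 ± 52.3 in untreated HCC and 166.7 ± 9.45 with miR-22. Set against Hk2, Hkdc1 per length was 0.237 to 0.72 times as abundant when healthy, 5.24 to 9.66 times without treatment and 3.46 to 4.65 times with miR-22.

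**Figure D2:**
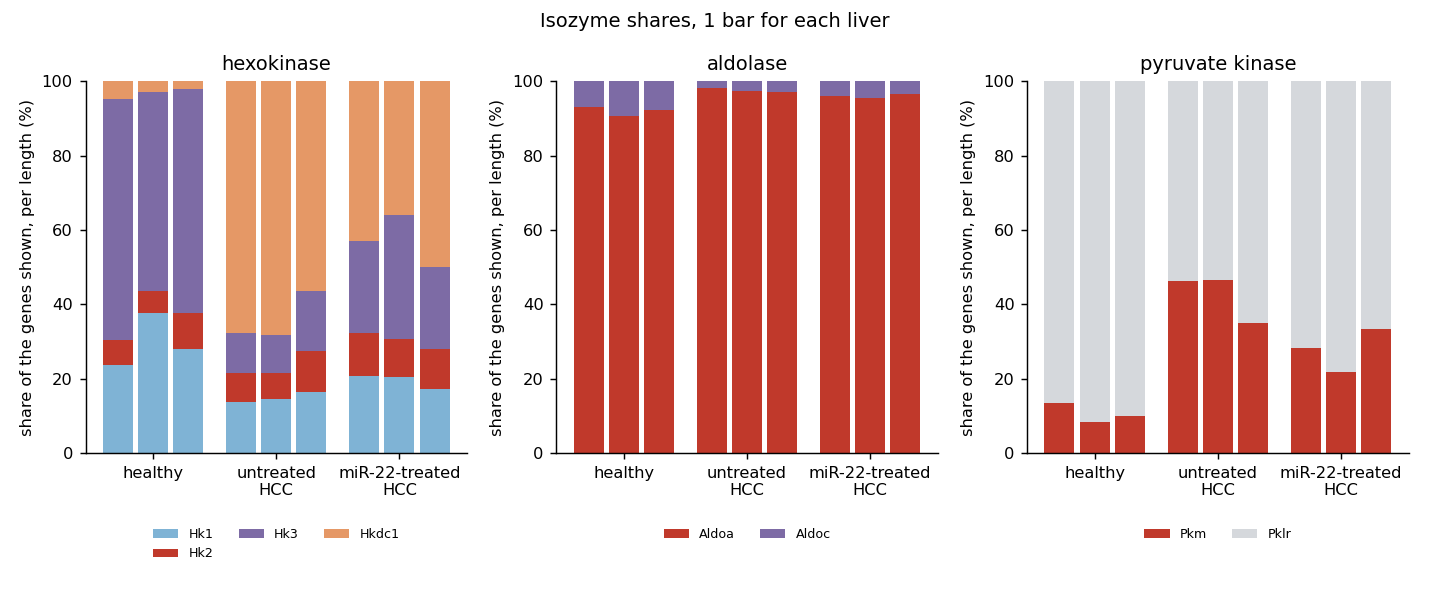
Share of each gene in the sum of the hexokinase, aldolase or pyruvate kinase genes studied (%, per transcript length), with 1 stacked bar for each of the 9 livers, grouped as healthy, untreated HCC and miR-22-treated HCC. Hk3 fills most of each healthy hexokinase bar and Hkdc1 most of each untreated HCC bar, at 56.4% or more, and the Pkm share runs from 8.50% in a healthy liver to 46.7% in an untreated HCC liver.

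The promoters of the hexokinase genes with the largest changes are shown because both genes were called higher than healthy livers in both HCC groups. Hkdc1 was also called between the HCC groups, and Hk2 was not. Each sequence is from RefSeq (GRCm38.p6, so not on the scale of the GRCm39 positions above) and runs from 250 bases before to 50 bases after the transcript start, on the strand of the gene. Capitals mark matches, on either strand, to ACGTG, a form of the core that hypoxia-inducible factors bind. Other forms of the core were not searched, so a promoter without a match lacks only ACGTG. The Hk2 sequence is chr6:82774405-82774704 (minus strand), and the Hkdc1 sequence is chr10:62422408-62422707 (minus strand).
Hk2 promoter: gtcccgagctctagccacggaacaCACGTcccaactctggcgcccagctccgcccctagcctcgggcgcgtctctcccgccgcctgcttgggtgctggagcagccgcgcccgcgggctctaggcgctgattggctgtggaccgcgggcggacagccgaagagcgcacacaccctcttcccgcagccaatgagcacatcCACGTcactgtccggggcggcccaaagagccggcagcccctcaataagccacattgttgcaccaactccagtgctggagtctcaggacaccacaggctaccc
Hkdc1 promoter: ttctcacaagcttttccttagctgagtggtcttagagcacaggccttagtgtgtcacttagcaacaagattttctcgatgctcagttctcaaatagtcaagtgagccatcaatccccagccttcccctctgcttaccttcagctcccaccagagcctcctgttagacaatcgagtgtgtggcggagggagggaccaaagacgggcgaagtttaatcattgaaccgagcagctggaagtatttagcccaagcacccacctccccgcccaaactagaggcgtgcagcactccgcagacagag
Hk2 held 2 matches, whose first bases lie 226 and 52 bases upstream of the start, and Hkdc1 none. RefSeq lists 14 promoters for the 8 genes, and 7 of them, in 6 genes, held ACGTG. It was in 19.6% of all 32851 promoters and in a promoter of 21.8% of all 27025 genes. The 6 genes include Hk3 and Aldoc, which were not called, and lack Pklr and Hkdc1, and a match is a description of letters, not of binding. CACGTG, the E-box that contains ACGTG and that MYC proteins bind, was in 0 of the 8 genes and in a promoter of 8.09% of all genes.

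Aldoa, the aldolase of muscle and most growing tissue, had 1465, 1172 and 1362 normalized counts in healthy livers. Untreated HCC livers had 4137, 4263 and 3440, and miR-22-treated livers 2083, 2090 and 2803. The groups did not overlap, and all treated livers lay between the others. The 6 skeletal muscle markers summed to 87.4, 1.01 and 18.9 CPM in healthy replicates 1, 2 and 3, and to 0.858 to 1.53 CPM in the HCC livers. Aldoa rose 2.96-fold in untreated HCC (log2 fold change 1.57, SE 0.138, edgeR adjusted p = 1.27e-06). It was 1.70-fold lower with miR-22 than in untreated HCC (log2 fold change -0.76, SE 0.135, edgeR adjusted p = 0.00199), and it was 1.74-fold above healthy livers (log2 fold change 0.80, SE 0.137, edgeR adjusted p = 0.000679). Without healthy replicate 1 the log2 fold change in untreated HCC was 1.62, and without healthy replicate 3 it was 1.57. Each of these calls held in all 17 alternative analyses that kept the thresholds. When edgeR tested for a fold over 1.5 (glmTreat), both miR-22 calls were lost, at adjusted p = 0.372 against untreated HCC and adjusted p = 0.122 against healthy livers. The gene lies at chr7:126393822-126399923 on the minus strand (GRCm39), and 6066 of its bases are inside the locus of the second Aldoa row.

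Aldoc, the aldolase of brain, had 206.1, 221.2 and 215.3 normalized counts in healthy livers. It had 151.8, 218.0 and 189.2 in untreated HCC and 160.9, 184.3 and 182.7 with miR-22. The untreated livers overlapped both other groups, and the treated livers lay below the healthy ones. It passed the test in no comparison, at log2 fold changes of -0.20 for untreated HCC against healthy livers (SE 0.149, edgeR adjusted p = 0.273), -0.08 between the HCC groups (edgeR adjusted p = 0.732) and -0.28 for treated HCC against healthy livers (edgeR adjusted p = 0.164). Aldoc has 9 exons at chr11:78213619-78218889 on the plus strand (GRCm39).

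The Aldoa share of the sum of Aldoa and Aldoc, per length, was 92.9%, 90.7% and 92.1% in healthy livers. It was 98.0%, 97.3% and 97.1% in untreated HCC and 96.0%, 95.4% and 96.6% in miR-22-treated HCC. No 2 groups overlapped in the Aldoa share, which was lowest in healthy livers (3-group exact permutation p = 0.00357, adjusted p = 0.00429). The Aldoc share, its complement, was 8.09% ± 1.11, 2.52% ± 0.498 and 4.0% ± 0.576 in the same order (SD, n = 3). The sum of both genes was 959.2 ± 95.6 normalized counts per kilobase in healthy livers, 2679 ± 294.5 in untreated HCC and 1602 ± 276.0 with miR-22. Per length, Aldoa exceeded Aldoc 9.77 to 13.1 times when healthy, 33.5 to 50.2 times without treatment and 20.9 to 28.3 times with miR-22.

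The promoter at the second of the Aldoa starts, chr7:126799205-126799504 (minus strand, GRCm38.p6), is shown with its match to ACGTG in capitals, the first base of which lies 126 bases upstream of the start.
Aldoa promoter: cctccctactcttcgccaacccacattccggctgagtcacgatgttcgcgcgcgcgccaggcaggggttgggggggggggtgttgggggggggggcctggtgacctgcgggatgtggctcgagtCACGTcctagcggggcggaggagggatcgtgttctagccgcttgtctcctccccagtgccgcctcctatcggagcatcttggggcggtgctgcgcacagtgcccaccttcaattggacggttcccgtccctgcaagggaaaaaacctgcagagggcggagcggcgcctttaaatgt
The third of the Aldoa promoters in RefSeq held the match 202 bases upstream of its start, and the first held none.

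At the pyruvate kinase step, the genes of the 2 forms moved in opposite directions in untreated HCC. Pkm had 470.8, 386.3 and 450.9 normalized counts in healthy livers, 1483, 1439 and 1109 in untreated HCC, and 903.3, 826.5 and 1066 with miR-22. All HCC livers lay above the healthy ones, and the highest treated liver (replicate 4) lay just below the lowest untreated liver (also a replicate 4). Pkm rose 3.08-fold in untreated HCC (log2 fold change 1.62, SE 0.135, edgeR adjusted p = 8.09e-07) and was 2.14-fold above healthy livers with miR-22 (log2 fold change 1.10, SE 0.135, edgeR adjusted p = 5.81e-05). Between the HCC groups its log2 fold change was -0.53 (SE 0.129, edgeR adjusted p = 0.0116), at 1.44-fold under the fold threshold and so not called. Without untreated replicate 4 it was called (log2 fold change -0.65, edgeR adjusted p = 0.00296), and likewise without treated replicate 4 (log2 fold change -0.63, edgeR adjusted p = 0.00462). The 10 markers of stellate cells and fibroblasts summed to 370.0 to 445.3 CPM among the healthy, 862.1 to 991.5 among the untreated and 717.2 to 815.5 among the treated livers. In untreated HCC against healthy livers 7 of them were called (40.8% of all genes), 4 higher (22.7%) and 3 lower (18.1%). The part of these cells in the Pkm values was not tested.

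Pklr had 4199, 5827 and 5656 normalized counts in healthy livers. It had 2398, 2302 and 2899 in untreated HCC and 3187, 4140 and 2963 with miR-22. The healthy livers were the highest, and the lowest of them lay just above the highest treated liver. Pklr fell in untreated HCC to 0.485 times the healthy mean (log2 fold change -1.04, SE 0.156, edgeR adjusted p = 9.65e-05). Over the 9 hepatocyte markers the median log2 fold change in this comparison was -1.06 against 0.01 over all genes, with 8 called lower (18.1% of all genes), and the part of hepatocyte content in the Pklr value was not tested. With miR-22, Pklr was below healthy livers (log2 fold change -0.61, SE 0.155, edgeR adjusted p = 0.00858), a call at 1.52-fold that was lost in 5 of 17 alternatives and when tested for a fold over 1.5 (edgeR glmTreat adjusted p = 0.732). Against untreated HCC the log2 fold change was 0.44 (SE 0.155, edgeR adjusted p = 0.0591).

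The Pkm share of pyruvate kinase, per length, was 13.6%, 8.50% and 10% in healthy livers. It was 46.4%, 46.7% and 34.9% in untreated HCC and 28.4%, 21.9% and 33.5% with miR-22. The means were 10.7% ± 2.6, 42.7% ± 6.73 and 27.9% ± 5.84, and no 2 groups overlapped (3-group exact permutation p = 0.00357, the smallest possible, adjusted p = 0.00429). Pklr thus remained the larger of the pair in all 9 livers, with 1.14 to 1.87 transcripts for each of Pkm in untreated HCC, 1.98 to 3.57 with miR-22 and 6.37 to 10.8 in healthy livers. Pklr lies at chr3:89043449-89054619 and Pkm at chr9:59563364-59586663, both on the plus strand with 11 exons (GRCm39). The 2 genes together came to 1702 ± 248 normalized counts per kilobase in healthy livers, 1287 ± 24.9 in untreated HCC and 1381 ± 142 with miR-22.

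The Pklr and Pkm promoters at the second start of each gene are shown because the genes moved in opposite directions. Capitals in Pklr mark a match to the carbohydrate response element, CANGNGNNNNNCNCNTG, which reads the same on both strands and through which glucose acts on the liver promoter by way of the factor encoded by Mlxipl. Capitals in Pkm mark ACGTG on either strand. The Pklr sequence is chr3:89136373-89136672 and the Pkm sequence chr9:59656977-59657276 (plus strand, GRCm38.p6).
Pklr promoter: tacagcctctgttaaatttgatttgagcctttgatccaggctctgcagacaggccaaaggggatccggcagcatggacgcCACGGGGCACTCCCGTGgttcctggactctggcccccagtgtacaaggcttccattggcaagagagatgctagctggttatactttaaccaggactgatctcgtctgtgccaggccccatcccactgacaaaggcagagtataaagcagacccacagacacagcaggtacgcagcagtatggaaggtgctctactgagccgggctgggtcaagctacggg
Pkm promoter: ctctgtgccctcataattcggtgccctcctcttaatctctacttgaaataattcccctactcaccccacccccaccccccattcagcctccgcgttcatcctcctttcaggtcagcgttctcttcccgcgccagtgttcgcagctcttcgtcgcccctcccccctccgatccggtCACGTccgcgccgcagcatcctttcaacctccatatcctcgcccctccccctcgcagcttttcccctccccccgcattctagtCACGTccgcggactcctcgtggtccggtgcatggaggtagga
The Pklr match begins 170 bases upstream of the start and was the 1 match to this element in the 14 promoters, while 0.557% of all promoters held one. The other Pklr start, which gives the red cell form, held none. Pkm held ACGTG with its first base 75 bases upstream and again 8 bases after the start.

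**Figure D3:**
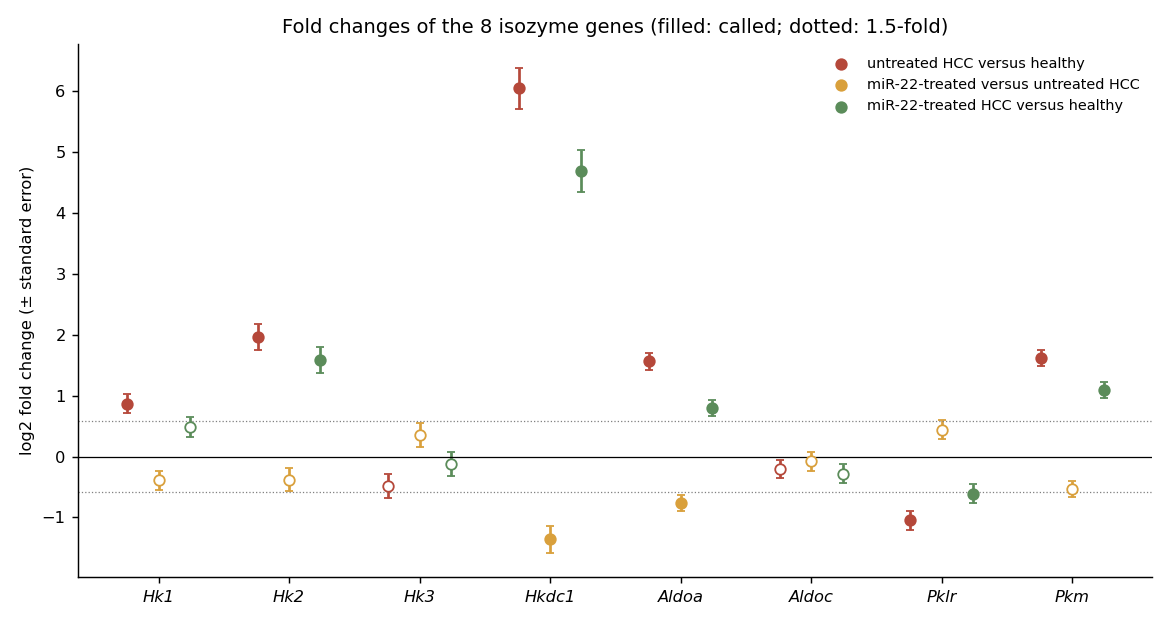
Log2 fold changes with standard errors of the 8 isozyme genes in 3 comparisons of groups of 3 livers. Filled points were called, open points were not, and dotted lines mark 1.5-fold. Hkdc1 has the largest values, 6.05 and 4.69 above healthy livers and -1.36 between the HCC groups.

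Read per kilobase, the order of the 8 genes was partly kept. Pklr was the highest in healthy livers at 1524 ± 261 normalized counts per kilobase, followed by Aldoa at 882.3 ± 98.2. In both HCC groups Aldoa was the highest, at 2612 ± 293.5 per kilobase in untreated HCC and 1539 ± 273.8 with miR-22, and Pklr the next at 738.5 ± 93.4 and 1000 ± 182. Pkm was the third in all groups, at 178.1 ± 18.0, 548.8 ± 83.5 and 380.7 ± 49.9. Hkdc1 was the last in healthy livers at 2.8 ± 1.48 per kilobase, and the fourth in untreated HCC at 186 ± 50.4 and with miR-22 at 71.9 ± 15.3. Hk2 was the last in both HCC groups, at 23.6 ± 1.01 and 18.1 ± 1.71. The neighbours Aldoc (63.2 ± 4.70) and Hkdc1 did not differ beyond their spread in miR-22-treated HCC.

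Some genes had their extremes in the same liver of a group and others did not, as a description of 3 livers a group. In untreated HCC, replicate 4 had the lowest Hkdc1, Aldoa, Pkm and Hk1 and the highest Pklr and Mlxipl, but also the highest Hk2 (192.1 normalized counts). With miR-22, replicate 4 had the highest Hkdc1, Aldoa and Pkm and the lowest Pklr, Hk3 and Hk1 (128.3 for Hk1). Replicate 3 had the lowest Hkdc1, Hk2 and Pkm and the highest Pklr and Hk3, but the lowest Mlxipl (4669 normalized counts). Mlxipl was highest in replicate 2 of that group (5778). Akt1 normalized counts in untreated HCC were 31315, 32454 and 22700 in replicates 2, 3 and 4, and with miR-22 they were 15472, 13027 and 21424. The liver with the lowest Akt1 in untreated HCC thus differed by little in Akt1 from the liver with the highest Akt1 under miR-22. In that order these livers had 454.4 and 303.6 normalized counts of Hkdc1 and 3440 and 2803 of Aldoa. For Hk2 they had 192.1 and 144.9, and for Hk1 163.1 and 128.3. Nearer to each other were Pkm (1109 and 1066), Pklr (2899 and 2963), Hk3 (119.6 and 122.7) and Aldoc (189.2 and 182.7). Whether the amount of oncogene accounts for any of these values was not tested.

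By the root mean square difference of log2 CPM, centred for each gene over the 9 libraries, the tested gene most like Hkdc1 was Thbs1 (0.183), followed by Tbx1 and Cxcl13. The gene most like Pkm was Mdfic (0.0677), followed by Cdc25a and Prkx. For Pklr it was mt-Nd4 (0.0837), then Sdhb and Adssl1, for Hk2 Arhgap27 (0.109), then Vopp1, and for Hk1 Mob1b (0.0602), then Cbl and Alcam. For Aldoa it was Eva1c (0.0991), then Sctr and Spry1. For Aldoc it was Rsad1 (0.0635), then Eml5 and Mnat1, and for Hk3 H2-T23 (0.104), then Minpp1 and Pigyl. Eva1c, Sctr and Tbx1 averaged 1.93, 0.813 and 2.03 normalized counts in healthy livers, and at such levels the value added before taking the log sets much of the log2 CPM. Genes that vary little have many near neighbours by this measure.

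The other steps of glycolysis were read from a list of 17 genes. In untreated HCC 9 were called, against 40.8% of all genes, 7 higher and 2 lower, with a median log2 fold change of 0.50 against 0.01 over all genes tested. Pfkp, the platelet form of phosphofructokinase, rose from 76.8 ± 6.69 to 758.1 ± 86.4 normalized counts (log2 fold change 3.30, SE 0.142, edgeR adjusted p = 7.61e-09). Gpi1, which converts glucose 6-phosphate to fructose 6-phosphate, rose by a log2 fold change of 0.69 (edgeR adjusted p = 9.38e-05), and Pgam1, a phosphoglycerate mutase, had 0.57, under the fold threshold. Between the HCC groups 1 of the 17 was called (13.8% of all genes), again Pfkp, which fell to 356.0 ± 43.7 (log2 fold change -1.09, SE 0.123, edgeR adjusted p = 0.000182), and the median was -0.19 against 0.00 over all genes. Pgam1 and Pfkl, the liver form of phosphofructokinase, had log2 fold changes of -0.37 (edgeR adjusted p = 0.00593) and -0.32 (edgeR adjusted p = 0.0375), under the fold threshold. Against healthy livers 2 of the 17 were called with miR-22 (24.0% of all genes), both higher, with a median of 0.18 against 0.02. When tested for a fold over 1.5 (edgeR glmTreat), 3 of the 17 were called in untreated HCC, all higher, where 28.9% of all genes were, and the counts in the other comparisons also depend on the thresholds, as given at the end. Hkdc1, Pfkp, Hk2, Pkm, Eno2 and Aldoa are thus the glycolytic genes with a log2 fold change over 1.5 in untreated HCC among these 25, Eno2 from 9.51 ± 4.73 normalized counts in healthy livers.

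**Figure D4:**
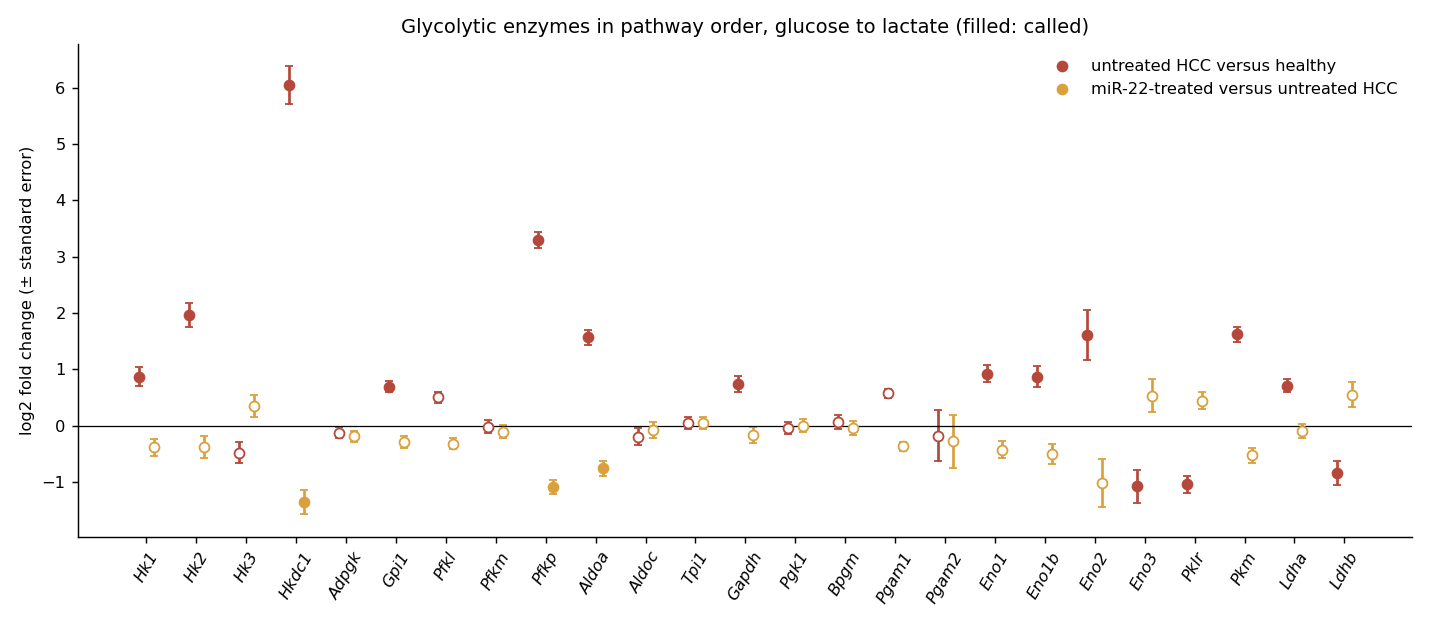
Log2 fold changes with standard errors of 25 glycolytic genes in the order of the pathway, for untreated HCC against healthy livers and for miR-22-treated against untreated HCC. Filled points were called. Hkdc1, Pfkp and Aldoa are called in both comparisons, with values of 6.05 and -1.36, 3.30 and -1.09, and 1.57 and -0.76.

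Of 12 carriers of sugar and lactate, 7 were called in untreated HCC against healthy livers (40.8% of all genes), 3 higher and 4 lower, and 5 between the HCC groups (13.8% of all genes), 3 higher and 2 lower with miR-22. Their median log2 fold changes were -0.04 and 0.30, against 0.01 and 0.00 over all genes. Slc2a9, a urate and hexose transporter, fell in untreated HCC (log2 fold change -1.86, edgeR adjusted p = 7.13e-07) and was higher with miR-22 than without (1.01, edgeR adjusted p = 0.000834). Slc16a1, a lactate carrier, and Bsg, which brings that carrier to the cell membrane, rose in untreated HCC, by log2 fold changes of 1.22 (edgeR adjusted p = 3.02e-06) and 0.99 (edgeR adjusted p = 1.12e-05). With miR-22, Slc2a1, the glucose transporter of growing cells, was lower than in untreated HCC (log2 fold change -0.75, edgeR adjusted p = 0.00373), and Slc2a4, the insulin-responsive transporter, was higher, at 80.0 ± 37.5 against 16.2 ± 5.66 normalized counts (log2 fold change 2.27, edgeR adjusted p = 0.00244).

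The enzymes of gluconeogenesis run the pathway in the opposite direction. Of these, all 6 genes tested were called in untreated HCC (40.8% of all genes), 4 lower and 2 higher, and 4 between the HCC groups (13.8%), 3 higher and 1 lower with miR-22. Their median log2 fold changes were -0.89 and 0.60. Pck1, which bypasses the pyruvate kinase step, fell from 43682 ± 1530 to 7196 ± 2312 normalized counts (log2 fold change -2.60, edgeR adjusted p = 1.05e-06) and stood at 47934 ± 11439 with miR-22 (2.74 against untreated HCC, edgeR adjusted p = 2.02e-05). Slc37a4, the glucose 6-phosphate carrier, had log2 fold changes of -1.58 and 1.09 in the same comparisons (edgeR adjusted p = 4.74e-06 and 0.000852). Pck2, the mitochondrial form, rose in untreated HCC (log2 fold change 1.97, edgeR adjusted p = 3.45e-06), and Fbp1 was higher with miR-22 (0.71, edgeR adjusted p = 0.00519). Of 5 genes of fructose entry tested, 3 were called lower in untreated HCC (18.1% of all genes), among them Sord (log2 fold change -2.12, edgeR adjusted p = 2.21e-07) and Glyctk (-0.80, edgeR adjusted p = 7.51e-05), and 1 was called higher with miR-22 than in untreated HCC (8.32% of all genes), again Sord (1.19, edgeR adjusted p = 0.000266). The third was Khk (-0.85, edgeR adjusted p = 0.000886), whose 0.58 with miR-22 against untreated HCC was under the fold threshold. Aldh1b1 (0.52 and -0.34) was under it in both comparisons.

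Among 14 tested genes from a list of transcription factors, binding partners and other regulators of glycolytic enzymes, 8 were called in untreated HCC (40.8% of all genes), 3 higher and 5 lower, and 4 between the HCC groups (13.8%), 2 in each direction. Their median log2 fold changes were -0.33 and 0.08. Mlxipl, whose product acts on the Pklr element shown above, fell from 7820 ± 637 to 2459 ± 640 normalized counts (log2 fold change -1.67, edgeR adjusted p = 4.09e-06) and was 5060 ± 623 with miR-22 (1.04 against untreated HCC, edgeR adjusted p = 0.00121). Gckr fell by 0.98 on the log2 scale (edgeR adjusted p = 8.57e-06). Mycn rose from 17.0 ± 4.12 to 345.4 ± 78.6 (log2 fold change 4.33, edgeR adjusted p = 5.20e-08) and was 192.4 ± 32.1 with miR-22 (-0.84, edgeR adjusted p = 0.00702), and Ppargc1a was higher with miR-22 (1.20, edgeR adjusted p = 0.00328). Hif1a, named here because its product binds ACGTG and after its values were seen, had log2 fold changes of 0.58 (edgeR adjusted p = 0.00015) and -0.12 (edgeR adjusted p = 0.367), neither called. Of 7 genes that steer the splicing of Pkm, 2 rose in untreated HCC, where 22.7% of all genes were called higher, Nek2 (log2 fold change 3.55, edgeR adjusted p = 1.56e-07) and Hnrnpa1 (0.60, edgeR adjusted p = 0.000455), and 1 was lower with miR-22 (5.47% of all genes), Nek2 (-0.76, edgeR adjusted p = 0.014). Ptbp1, at 0.48, and Srsf3, at -0.31 with miR-22, were under the fold threshold. Nek2 is also a gene of dividing cells, and the 6 proliferation markers summed to 9.62 to 14.8 CPM among the healthy, 146.8 to 187.1 among the untreated and 90.2 to 135.3 among the treated livers.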

How the data were processed

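RNA sequencing libraries of 9 whole livers were prepared from total RNA with a kit that does not keep the strand and read as pairs. According to the study's methods and the submitters' processing notes, the authors checked reads with FastQC 0.11.7, quantified them against GRCm39 by Salmon, and took gene-level values through tximport to DESeq2 1.18. The authors deposited whole-number counts per gene, not normalized, for 55401 rows, and a table of signal values. The deposited signal equals those counts divided by a DESeq2 size factor, within 0.01 for 100.0% of values, and was used for this check alone.

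The test was the two-sided quasi-likelihood F test of edgeR 4.0.16 (R 4.3.3), with TMM scaling, filterByExpr and no covariates, on all 9 libraries at once. Of the genes, 15717 passed the filter. The members and lists were chosen with earlier results of these data known. All 8 isozyme genes are named. Of each other list of enzymes or regulators the 3 genes with the smallest p in untreated HCC against healthy livers and between the HCC groups are named, and for each isozyme gene the 3 nearest genes. Marker lists are given by counts and summed CPM, and the 4 macrophage markers that were called are named after their values were seen. Gene lengths, positions and 3′ UTRs are those of GENCODE vM39 canonical transcripts (GRCm39). An isozyme share is counts per transcript length over the sum of those of the studied genes of the same enzyme. Some other genes are not reported here and are left out of these sums and of the lists. Groups were compared by an exact permutation test on the logit share over 1680 assignments of livers, two-sided between pairs. A check for a library deposited more than once found no pair of replicates within counting noise (chi-square per degree of freedom 6.13 to 28.4). Scripts were tested on simulated data. Alternatives were DESeq2 1.42.0, limma 3.58.1, other normalizations and filters, plain counts in shares and each liver left out.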

Additional observations from a re-analysis of the deposited data

How the results depend on the processing

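Of the isozyme genes, 5 were called in miR-22-treated HCC against healthy livers, and 3 when the fold was tested against 1.5 (edgeR glmTreat) or when at least 10 counts were required in every library, a filter that Hkdc1 fails. Between the HCC groups 2 were called, and 1 under each of these settings. Of the other glycolysis genes, 9 were called in untreated HCC against healthy livers and 3 by glmTreat (28.9% of all genes). Between the HCC groups 1 was called, and 3 with no fold threshold (24.0% of all genes) and 1 to 2 with each liver left out. In miR-22-treated HCC against healthy livers 2 were called, and 6 with no fold threshold (36.5% of all genes). It was 1 with DESeq2 size factors, with the DESeq2 Wald test and with glmTreat (24.1%, 24.6% and 12.8% of all genes). With each liver left out it was 1 to 4, 4 without miR-22-treated replicate 2 (23.5% of all genes) and 1 without replicate 3 (23.4%). Between the HCC groups 2 were called without untreated replicate 4 (15.0% of all genes) or without treated replicate 4 (16.5%). The Hk2 share of the hexokinase genes differed by 1.02 points between untreated HCC and healthy livers, by -0.125 points without untreated replicate 4 and by -0.125 to 2.09 points over all livers left out, and it did not pass the test under any of these. From plain counts in place of counts per length, the difference between the HCC groups was 4.24 points for the Hk2 share in place of 2.38, and -2.59 points for the Aldoa share in place of -1.49. Shares over the 8 genes alone, planned as an alternative, are the shares reported above. The log2 fold change of Aldoc between the HCC groups was 0.04 without untreated replicate 3 and -0.21 to 0.04 over all livers left out, and that of Hk3 with miR-22 against healthy livers was 0.08 with the replicate block and 0.03 without healthy replicate 1 (-0.29 to 0.03 over all livers left out). None of these 3 was called. The Pklr call with miR-22 against healthy livers was lost at log2 fold changes of -0.51 to -0.58, without healthy replicate 2 or 3, without treated replicate 2 or 4, and under the filter of 10 counts. The cause was not tested.

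Samples of the HCC groups with the same number did not deviate together (correlations -0.16, -0.23 and -0.31), so the numbers do not pair them. With the replicate number as a block, 1745 genes were called between the HCC groups in place of 2167, and the calls of the isozyme genes stayed at 6, 2 and 5.

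Depth limits Hkdc1 in healthy livers, and 3 livers a group limit every exact test between pairs to a p of 0.1.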
